A study of Mus musculus with 32 samples.

Results

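Mast cells and basophils carry out allergic responses through granule proteases, histamine and the high-affinity IgE receptor, and 7 genes of that program were followed here through 3 chromatin marks: Cma1, Mcpt4, Mcpt8, Cpa3, Ms4a2, Fcer1a and Hdc. They were taken by name as established effector genes, 7 of 21887 protein-coding genes. H3K4me1 at the start of Cma1 covered all 250 bases before the start site in both libraries that carried the Asxl1 guide and CSF3R T618I together, and none of those bases in the other 8. Hdc was the other gene called: H3K4me1 over its body was longer in the 3 CSF3R T618I libraries than in the controls. Mcpt8 had H3K4me1 over its promoter in all 10 libraries, Fcer1a had none in its window in any, and the Polycomb marks were absent or limited to 4 short peaks at all 7 genes.

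The cells are a mouse bone marrow line immortalised with HoxB8, a homeobox protein whose estrogen-dependent form keeps myeloid progenitors dividing while estrogen is present. All groups were grown in medium with stem cell factor (SCF), the ligand of Kit, and had been without estrogen for 48 h. CUT&Tag, in which an antibody directs a transposase to a histone mark, was done for H3K27me3, H2AK119ub and H3K4me1, with 10 libraries per mark and 30 in all. The control had a non-targeting guide and the empty pMICH vector (2 libraries per mark), the Asxl1 group had guide B2 against Asxl1 and the empty vector (3), the CSF3R group had the non-targeting guide and pMICH carrying CSF3R-T618I (3), and the double group had guide B2 with CSF3R-T618I (2). T618I is an activating change in the G-CSF receptor, and Asxl1 is a partner of the deubiquitinase Bap1, which removes ubiquitin from histone H2A. Each Asxl1 group rests on 1 named guide in 1 cell line, and nothing in the labels says that libraries came from separate cultures or clones, so p-values measure the spread between libraries, which may be technical.

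H3K4me1 marks enhancers and the flanks of promoters, whether active or only primed, while H3K27me3 and H2AK119ub are laid down by the Polycomb repressive complexes over silent genes. In mast cells and basophils, GATA2, together with MITF in mast cells and C/EBPα in basophils, is known to drive these effector genes, and SCF acting on Kit supports mast cell growth. Chymases and other granule proteases of this family lie side by side in 1 gene cluster on mouse chromosome 14, which also holds cathepsin G and granzymes.

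The values are peak positions, with no height or read count, so each level below is the length of sequence covered by H3K4me1 peaks, in bp, within the gene plus 5 kb or plus 50 kb on each side. Differences between groups were fitted with limma on the covered share of each window, over all protein-coding genes, and a window was called at an adjusted p under 0.05. Windows needed a covered share of at least 5% (5 kb flank) or 1% (50 kb flank) in at least 2 libraries to be tested. H3K4me1 libraries held 14479 to 21185 peaks over 26.6 to 47.2 Mb; double 1 had the most peaks, while the covered length of both double libraries lay within the range of the others. H3K27me3 libraries were more uneven, from 4.73 to 53.0 Mb, both extremes being Asxl1 libraries, and H2AK119ub covered 11.8 to 39.1 Mb. Sequencing depth is unknown, so a missing peak may lie below detection and no counting interval can be given. In bulk libraries a change in the share of a cell type cannot be told apart from a change of the mark within each cell.

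The promoters differ in what they hold, and 4 of them are shown because H3K4me1 reached them in different libraries: Cma1 in the double libraries, Mcpt8 in all 10 libraries, Ms4a2 in 1 and Hdc in 3. Each is the 250 bases before the start site, 5′ to 3′ on the gene's strand (minus for all 7 genes), from RefSeq GRCm38.p6, the assembly behind mm10. The RefSeq start site used lies inside the gene model for Mcpt8 and Hdc, whose models begin at -302 and -5347 bp from it. It also lies inside for Ms4a2, Cpa3 and Fcer1a, whose models begin at -71, -28 and -3 bp. Capitals mark matches to the letters searched, on either strand: the GATA letters AGATAA, or in other forms TGATAA, or AGATAG, or TGATAG, then the MITF E-boxes CATGTG or CACGTG, the PU.1 core GAGGAA, the C/EBP form TTGCNNAA and the TATA box TATAAA.
Cma1 (chr14:55944676-55944925): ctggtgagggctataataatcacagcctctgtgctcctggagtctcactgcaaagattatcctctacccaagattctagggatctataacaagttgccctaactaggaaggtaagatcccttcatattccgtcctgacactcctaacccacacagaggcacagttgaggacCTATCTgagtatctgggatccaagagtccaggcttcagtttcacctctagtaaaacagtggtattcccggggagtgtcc
Mcpt8 (chr14:56085198-56085447): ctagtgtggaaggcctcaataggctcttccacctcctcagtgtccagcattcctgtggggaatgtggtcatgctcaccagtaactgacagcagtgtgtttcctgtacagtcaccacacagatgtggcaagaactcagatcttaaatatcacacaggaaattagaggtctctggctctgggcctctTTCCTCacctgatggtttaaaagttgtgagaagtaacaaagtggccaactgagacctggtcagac
Ms4a2 (chr19:11623720-11623969): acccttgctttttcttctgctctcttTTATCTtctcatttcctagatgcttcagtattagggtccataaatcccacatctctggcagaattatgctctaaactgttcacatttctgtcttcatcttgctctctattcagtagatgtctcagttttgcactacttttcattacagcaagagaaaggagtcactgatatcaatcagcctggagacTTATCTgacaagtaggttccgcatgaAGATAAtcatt
Hdc (chr2:126618679-126618928): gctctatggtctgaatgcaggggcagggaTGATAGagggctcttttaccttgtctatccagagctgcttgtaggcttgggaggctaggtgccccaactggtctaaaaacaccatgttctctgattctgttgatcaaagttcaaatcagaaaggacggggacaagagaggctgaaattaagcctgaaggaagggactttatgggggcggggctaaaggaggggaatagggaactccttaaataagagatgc

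A GATA form was present in 6 of the 7 promoters, all but that of Mcpt8, against 26.5% of the 32851 promoters in the table. In Cma1 it was AGATAG on the opposite strand, from position -79 to -74, and in Hdc TGATAG from -221. Ms4a2, the β chain of the IgE receptor, had AGATAA at 3 places, starting at -224, -37 and -11, the last on the gene's own strand. Cpa3 had AGATAA at -46 and Mcpt4 had TGATAA at -103, each with a TATA box nearby, at -31 and -32. Fcer1a held AGATAA at -92 and also a MITF E-box, a PU.1 core and a C/EBP form, which 17.6%, 23.3% and 9.56% of promoters hold. Mcpt8 had only a PU.1 core, at -65 on the opposite strand; that says only that the other letters are not in this window. TATAAA was in 3 of the 7 promoters, against 12.4% of all promoters. These matches describe the sequence and were not tied to binding of any factor.

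Neither Polycomb mark was found over these genes beyond a few short peaks. H3K27me3 had no peak within 5 kb of any of the 7 genes in any of 10 libraries, and its nearest peak in any library lay 39.5 kb from Hdc, 56.8 kb from Fcer1a, 69.4 kb from Cma1 and over 100 kb from the other 4 genes. Of all 21887 windows, 60.4% likewise had no H3K27me3 peak in any library, so the absence is not particular to the 7. H2AK119ub had 4 peaks near 3 of the genes, each in 1 library: 300 bp from -3525 to -3226 of Cma1 in double 2, 200 bp inside Cpa3 in double 1, and 250 and 200 bp inside Hdc in control 2 and double 2. No H2AK119ub peak lay in the windows of Mcpt4, Mcpt8, Ms4a2 and Fcer1a, as was the case for 45.9% of all windows. None of the 7 reached the 5% minimum in 2 libraries for either mark, so no Polycomb difference was tested at them.

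Cma1, which encodes mast cell chymase (chr14:55941451-55944675, minus strand), carried H3K4me1 at its start in the double genotype and scarcely elsewhere. Within 5 kb of the gene the covered length was 0 bp in both control and all 3 Asxl1 libraries, 0, 0 and 650 bp in the CSF3R libraries, and 4300 and 4050 bp in the double libraries. The double libraries stood far above all 8 others, with no overlap. Double exceeded CSF3R by 3958 ± 234 bp (SE), or 29.9 percentage points of the window (adjusted p = 8.17e-05), in a comparison where 10.6% of 3988 tested windows were called in either direction. It exceeded Asxl1 by 4175 ± 234 bp (adjusted p = 3.00e-05; 17.8% of windows called). The effect of the guide was larger with CSF3R-T618I than without it by 3958 ± 331 bp (interaction, adjusted p = 0.00137; 0.853% of windows called). Because only the double libraries took this window past the 5% minimum, it could be tested only by differing, and without either double library it was not tested. The call was lost when windows were scored as having any peak or none (adjusted p = 0.269 against CSF3R, 0.0517 against Asxl1 and 0.450 for the interaction), a score under which CSF3R 3 counts as marked.

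**Figure D1:**
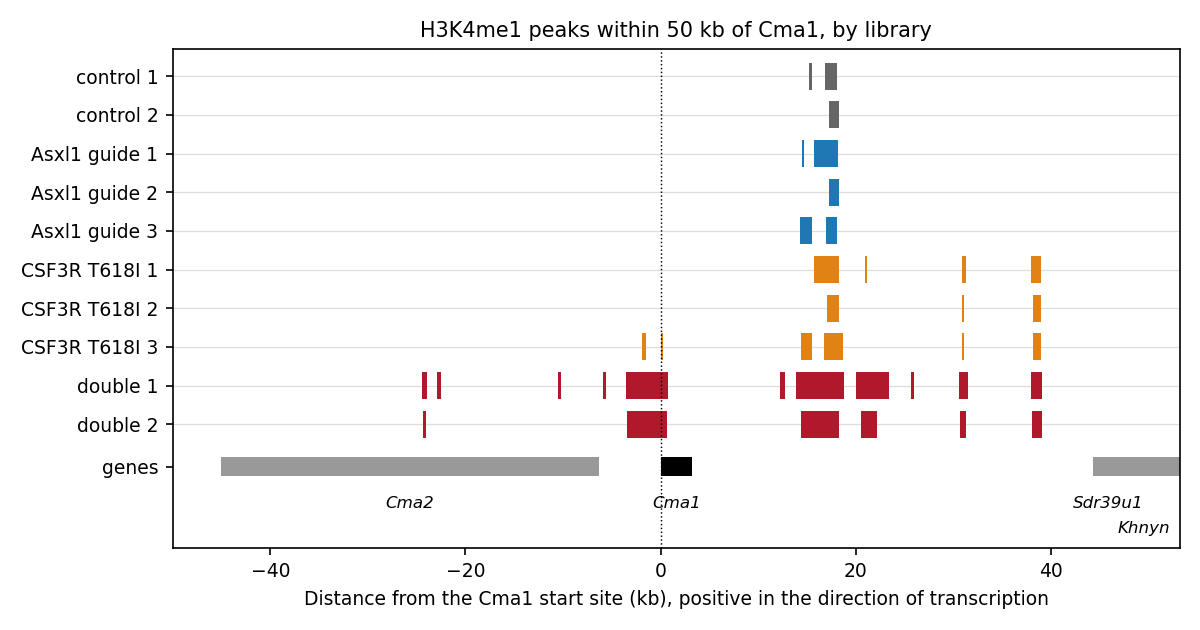
H3K4me1 peaks (bars) in each of 10 libraries against distance from the Cma1 start site in kb, with gene bodies at the bottom (Cma1 in black, neighbours in grey). A peak from about -3.5 to 0.8 kb was present in both double libraries, short pieces of it in CSF3R 3, and the peaks near 31 and 38 kb in CSF3R and double libraries only.

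The peak at the Cma1 start lay at chr14:55943901-55948200, from -3.525 to 0.774 kb, so that most of it was upstream of the gene and all 250 printed promoter bases were inside it in both double libraries. The short pieces in CSF3R 3 (650 bp in all) covered none of those 250 bases. No IgG peak lay within 5 kb of Cma1; the IgG list came from 2 merged libraries, 1 Asxl1 and 1 CSF3R. Tested as a merged region, in a fit where 9.57% of 22837 regions were called, the double genotype exceeded CSF3R by 3958 bp (adjusted p = 0.000487), and it was called with any 1 library left out. Against Asxl1 the adjusted p was 0.000378 (17.2% of regions called), and for the interaction 0.00557 (4.19%). The bounds of this region are those of the double 1 peak, so full cover in double 1 was set by its definition. Only the double libraries and CSF3R 3 had a peak in it, so it adds no separate evidence to the 5 kb window. The interaction was lost without double 1 (adjusted p = 0.0768) and with regions required in at least 3 libraries (adjusted p = 0.0521).

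Around the gene, 5 more regions within 50 kb were tested, and 3 of them were called higher in double than CSF3R. A region at 13.875 to 18.824 kb, past the 3′ end of Cma1, was present in all 10 libraries: 1600 and 1100 bp in the controls, 2650, 1100 and 2400 bp in Asxl1, 2550, 1250 and 3100 bp in CSF3R, and 4950 and 3950 bp in double. It was longest in the double libraries but was not called against CSF3R (2150 ± 724 bp, adjusted p = 0.115). At 37.975 to 39.074 kb, 1050, 850 and 800 bp were covered in CSF3R and 1100 and 950 bp in double, and nothing in the controls or Asxl1 libraries. That region differed between CSF3R and control by 900 ± 106 bp (adjusted p = 0.00212; 8.78% of regions called) with any 1 library left out, and double was not called above CSF3R (125 bp, adjusted p = 0.540). The region at 30.575 to 31.474 kb had the same 5 libraries, with 350, 200 and 250 bp in CSF3R and 900 and 600 bp in double. Double was called above CSF3R there (483 bp, adjusted p = 0.0210), but not without double 1 (adjusted p = 0.136). At 20.025 to 23.374 kb, 3350 and 1600 bp were covered in double and 200 bp in CSF3R 1 (adjusted p = 0.0157 against CSF3R; 0.0618 without double 1). Scored as any peak or none, neither this region nor the one at the Cma1 start was called against CSF3R (both adjusted p = 0.257) or Asxl1 (both 0.0519). A short region inside the gene model of Cma2, a second chymase gene upstream, was found only in the double libraries (500 and 250 bp, adjusted p = 0.0107 against CSF3R), and so could be tested only by differing.

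Summed over the gene plus 50 kb, Cma1 was covered for 1600 and 1100 bp in the controls, 2650, 1100 and 2400 bp in Asxl1, 4150, 2300 and 4800 bp in CSF3R, and 17050 and 11400 bp in double. Both double values lay above all others, and this window passed the 1% minimum in all 10 libraries. Double exceeded CSF3R by 10475 ± 1515 bp (10.1 points, adjusted p = 0.00968; 9.81% of 9803 windows called) and Asxl1 by 12175 ± 1515 bp (adjusted p = 0.00272; 16.6% called). Leaving out each library in turn kept both calls, with a difference against CSF3R from 7.41 to 12.9 points; fitting only double and CSF3R gave adjusted p = 0.102. The interaction of 9775 ± 2143 bp was not called (adjusted p = 0.174; 0.367% called), nor was CSF3R against control (2400 bp, adjusted p = 0.397; 8.44% called).

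Mcpt4, a connective tissue mast cell chymase, and Mcpt8, a protease made by basophils, lie 19852 bp apart on chromosome 14, and 80148 bp of their 50 kb windows are shared, so their wide values are not independent. At Mcpt8 (chr14:56082163-56085499) the gene plus 5 kb was covered for 1800 and 2100 bp in the controls, 650, 500 and 1450 bp in Asxl1, 1900, 1350 and 2600 bp in CSF3R, and 1900 and 1900 bp in double. All of it was a single region from -1.903 to 0.946 kb, present in all 10 libraries, which covered 247 to 250 of the promoter bases in each. Its peak took in the start site itself in 9 libraries and ended 4 bases short of it in double 1. The 3 Asxl1 libraries were below both controls and both double libraries, and overlapped CSF3R at 1350 bp. Asxl1 against control was -1083 ± 397 bp (adjusted p = 0.591; 0.0502% of windows called), and double against Asxl1 1033 bp (adjusted p = 0.106), so neither was called. The 95% interval of double against CSF3R ran from -957 to 857 bp, so a change of that size in either direction remains possible. A distal region at -9.853 to -7.654 kb was present in 9 libraries, absent only from Asxl1 2, and longest in CSF3R 3 and double 1, at 1850 and 2200 bp; it was called in no comparison.

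**Figure D2:**
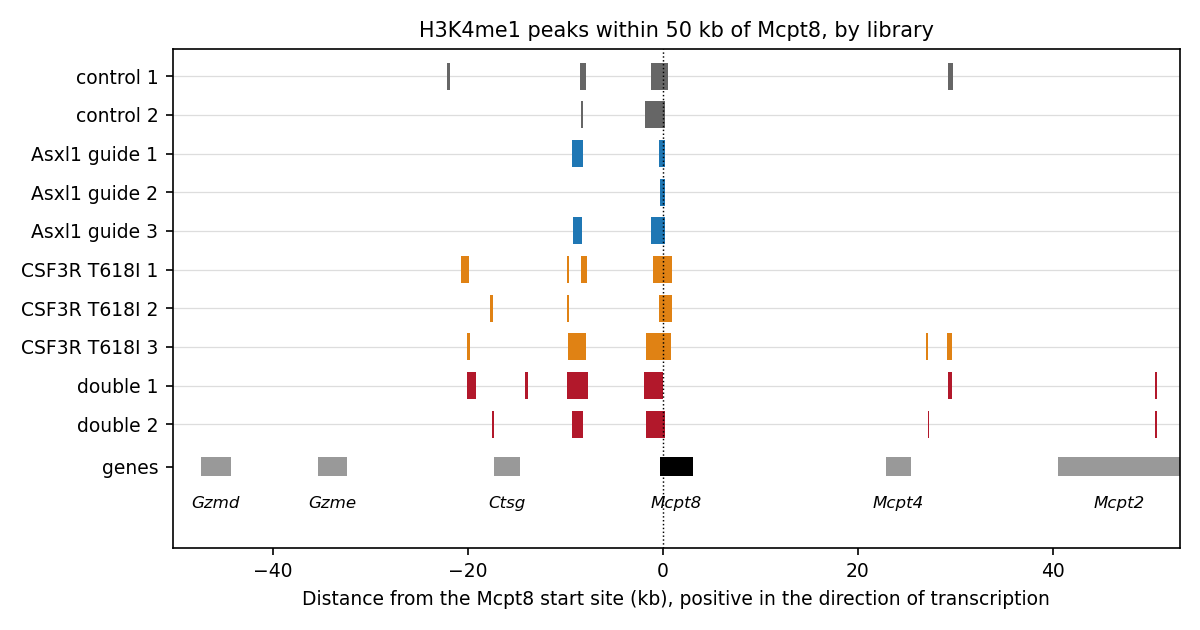
H3K4me1 peaks (bars) in each of 10 libraries against distance from the Mcpt8 start site in kb, with gene bodies at the bottom. A peak over the promoter was present in all 10 libraries, and Mcpt4, about 24 kb downstream, had no peak over its body.

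Mcpt4 (chr14:56059744-56062310) had no H3K4me1 at its own promoter in any library. Its 5 kb window held 450 and 0 bp in the controls, 0 bp in all 3 Asxl1 libraries, 0, 0 and 750 bp in CSF3R, and 400 and 200 bp in double, all past its 3′ end. These values overlapped between groups and did not reach the minimum for a test. In the 50 kb window, 3200 and 2300 bp were covered in the controls, 1700, 500 and 2400 bp in Asxl1, 3500, 1900 and 5450 bp in CSF3R, and 7900 and 3900 bp in double. Double against Asxl1 was 4367 ± 1363 bp (adjusted p = 0.0628) and double against CSF3R 2283 ± 1363 bp (adjusted p = 0.309); neither was called. A 300 bp region inside Mcpt2, a mucosal mast cell protease gene, was covered for 300 and 250 bp in the double libraries and 0 bp in the other 8 (interaction 275 ± 35.0 bp, adjusted p = 0.00527). A region at 47.460 to 48.309 kb was also limited to the double libraries, at 850 and 250 bp; its call against Asxl1 (adjusted p = 0.0398) was lost with any 1 of the other 8 libraries left out (adjusted p = 0.0581 to 0.0962). Both of these regions were testable only because the double libraries held them.

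Cpa3 (chr3:20215616-20242209), the mast cell carboxypeptidase, had a region in its first kilobases in every library and none at its promoter. That region, 0.831 to 3.430 kb inside the gene, covered 2100 and 700 bp in the controls, 2500, 1300 and 1500 bp in Asxl1, 1700, 2350 and 1400 bp in CSF3R, and 2550 and 1450 bp in double, with wide overlap. The whole 5 kb window held 2100 and 700 bp, then 2700, 1300 and 1500 bp, then 2050, 2350 and 1700 bp, and 7100 and 1450 bp in the same order of groups. Only double 1 stood apart, through 3 regions inside the gene of 350, 1750 and 1900 bp that no other library had. An IgG peak of 300 bp lay within 5 kb of Cpa3 and overlapped none of these regions. Double against CSF3R was 2242 ± 1410 bp (adjusted p = 0.333), not called; with double 1 as the only double library it would be (13.8 points, adjusted p = 0.0259).

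Of the IgE receptor genes, Ms4a2 was marked mainly in double 1 and Fcer1a hardly at all. Ms4a2 (chr19:11615517-11623790) had 300 and 0 bp in the controls, 0 bp in all Asxl1 and CSF3R libraries, and 5890 and 450 bp in double, within 5 kb. Both double libraries exceeded the other 8, but by very different lengths, and the window failed the minimum for a test. A region from -1.831 to -0.182 kb, just before the start site, was found only in the double libraries, at 1650 and 200 bp (adjusted p = 0.158 against CSF3R). A region past the 3′ end, at 9.119 to 12.118 kb, held 300 bp in control 1 and 3000 and 250 bp in double, and overlapped a peak of the IgG list. In double 1, a peak of 8300 bp ran from -12.131 to -3.832 kb, partly over the upstream neighbour Ms4a3 and partly inside the 5 kb window already counted. That region held 800 bp in double 2 and 0 to 1550 bp elsewhere. Over 50 kb, Ms4a2 held 7650 and 4400 bp, 3450, 1100 and 2950 bp, 6900, 1550 and 5950 bp, and 19000 and 2600 bp in control, Asxl1, CSF3R and double; double against CSF3R was 6000 ± 4054 bp (adjusted p = 0.366). Without double 2, leaving double 1 as the only double library, that difference was 13.1 points (adjusted p = 0.0216), so 1 library decides it. Fcer1a (chr1:173221269-173227232), which encodes the IgE-binding α chain, had 0 bp within 5 kb in all 10 libraries. Its 50 kb window held a single 400 bp peak, in double 1, at -10.921 kb. At this unknown depth, no H3K4me1 was detectable at Fcer1a in the other 9 libraries; 62.6% of all 5 kb windows also had no peak in any library.

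Hdc, the histidine decarboxylase that makes histamine (chr2:126593659-126624025), was the most heavily marked of the 7 and the only one whose window was called for CSF3R-T618I alone. Its 5 kb window held 10000 and 8750 bp in the controls, 9700, 6550 and 9750 bp in Asxl1, 15050, 15100 and 16350 bp in CSF3R, and 13350 and 11450 bp in double. The groups separated with CSF3R highest, double next, and control and Asxl1 lowest and overlapping. CSF3R exceeded control by 6125 ± 1117 bp, or 15.2 points (adjusted p = 0.0131; 9.28% of 3988 windows called), ranking 151st of 3988 from the highest. The call was lost without control 1 (adjusted p = 0.0653) or control 2 (adjusted p = 0.123), when 1 control library remained. Double against CSF3R was -3100 ± 1117 bp (adjusted p = 0.112), double against Asxl1 3733 ± 1117 bp (adjusted p = 0.0517), and the interaction -2392 ± 1579 bp (adjusted p = 0.594), none of them called.

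**Figure D3:**
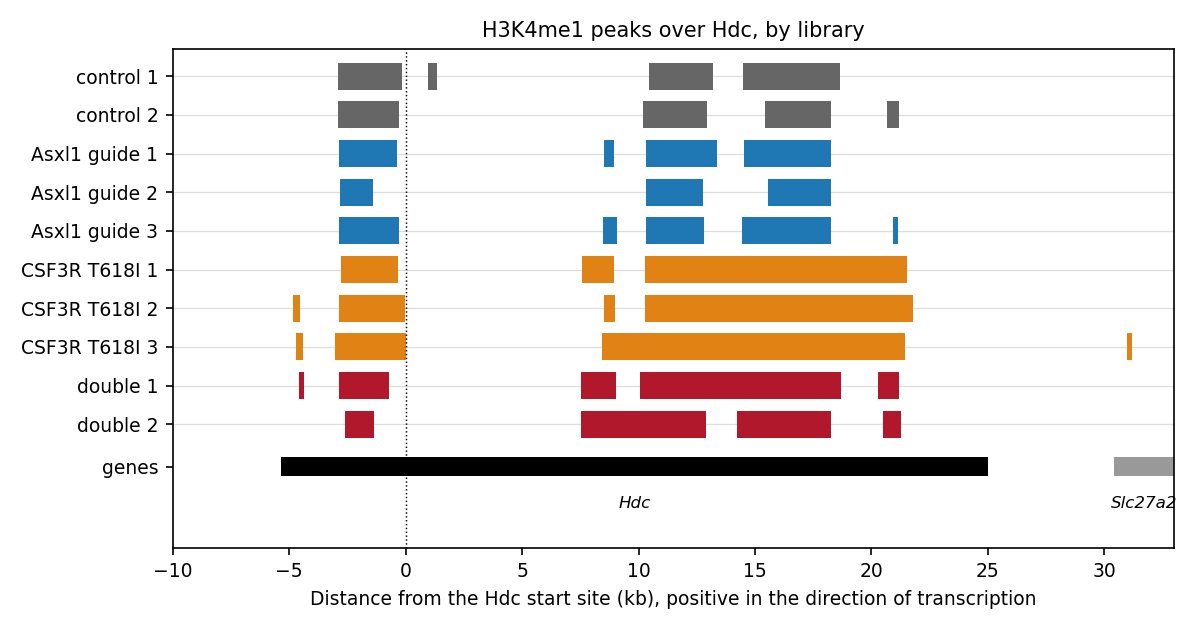
H3K4me1 peaks (bars) over Hdc in each of 10 libraries against distance from the RefSeq start site in kb; the black bar is the gene model, which begins upstream of that start site. The peaks between about 7.5 and 21.8 kb were nearly continuous in the 3 CSF3R libraries and broken up in the control and Asxl1 libraries.

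The gain lay within the gene. A domain at chr2:126596901-126611150, 7.528 to 21.777 kb past the start site, was covered for 6900 and 6100 bp in the controls and 7200, 5150 and 7150 bp in Asxl1. It was covered for 12600, 11950 and 13000 bp in CSF3R and 11000 and 10200 bp in double, so the genotypes with CSF3R-T618I did not overlap those without it. CSF3R against control was 6017 ± 1223 bp (adjusted p = 0.0210); it was not called without control 1 (adjusted p = 0.101) or control 2 (adjusted p = 0.134). The region at the start site, -3.022 to 0.027 kb, was covered for these lengths: 2750 and 2650 bp in control, 2500, 1400 and 2600 bp in Asxl1, 2450, 2850 and 3050 bp in CSF3R and 2150 and 1250 bp in double (CSF3R against control 83.3 ± 450 bp, adjusted p = 0.994). Both double values lay below all 3 CSF3R values, a difference of -1083 ± 450 bp that was not called (unadjusted p = 0.0423, adjusted p = 0.196). The region covered 78 of the 250 printed promoter bases in control 1, 228 in CSF3R 2, 250 in CSF3R 3 and none in the other 7 libraries. Of those 7, its peak ended at -723 bp in double 1, -1373 bp in double 2 and -1423 bp in Asxl1 2. In the rest it ended between -373 and -273 bp. Over 50 kb, CSF3R exceeded control at Hdc by 6017 ± 1393 bp (adjusted p = 0.0367), a call kept in 4 of 10 fits with a library left out and lost without control 1 or 2, Asxl1 3, or any CSF3R library (adjusted p = 0.0608 to 0.256). It was also lost with 100 kb flanks (adjusted p = 0.652) and with no filter on low values (adjusted p = 0.0553).

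**Figure D4:**
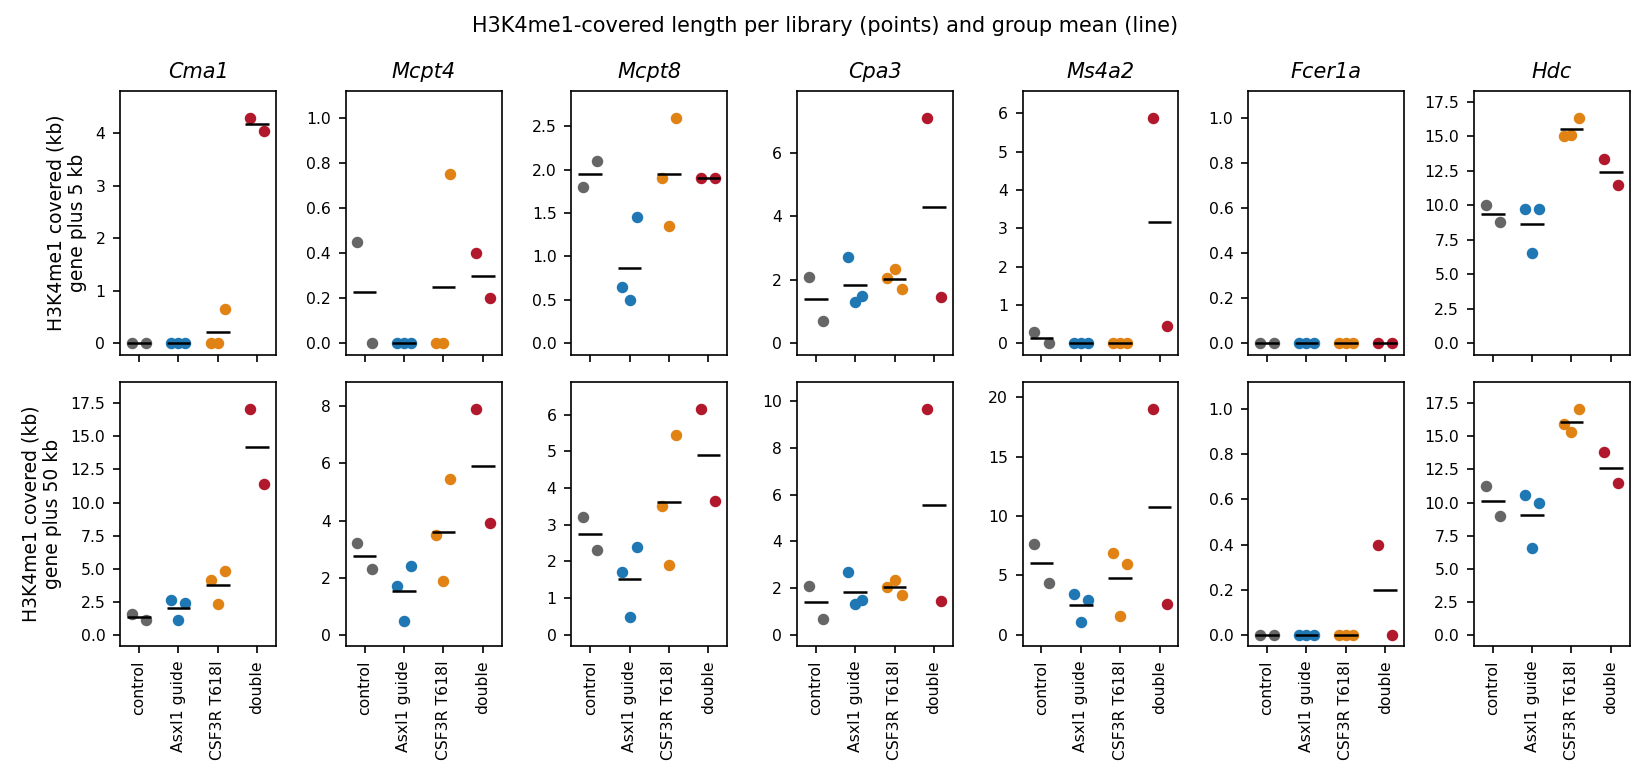
H3K4me1-covered length in kb for the 7 genes, in the gene plus 5 kb (top row) and plus 50 kb (bottom row); points are libraries, lines are group means, and each panel has its own axis from 0. Cma1 is high only in the double libraries, Hdc is highest in CSF3R, and the high double values at Cpa3 and Ms4a2 come from 1 library.

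Across the genes, 4 of 7 could be tested at 5 kb (Cma1, Mcpt8, Cpa3 and Hdc) and 6 of 7 at 50 kb, all but Fcer1a. At either flank, Hdc was the 1 gene called for CSF3R against control, and Cma1 the 1 called for double against CSF3R and against Asxl1, all higher. For the Asxl1 guide alone limma called no gene at either flank, and 1 of 4 genes at 5 kb (Mcpt8) and 0 of 6 at 50 kb had an unadjusted p under 0.05. Over all windows it called 0.0502% at 5 kb and 0% at 50 kb, where 548 of 9803 had an unadjusted p under 0.05, and 0.994% of regions. With 8.44% to 17.8% of all windows called in the other 3 pairwise comparisons, 1 call among 4 or 6 genes says nothing of the genes as a group. For size, Cma1 ranked 6th from the highest of 3988 windows and 8th of 9803 in double against CSF3R, and 21st and 80th against Asxl1. At 5 kb Cma1 was among the tested windows only through the double libraries, so a high rank there was built in. The ranks are descriptions only, since the genes were chosen with earlier results of these data known. The median difference of the 6 genes tested at 50 kb was 2.50 points in double against CSF3R, beside -0.812 over all windows, and 3.76 beside -0.0245 against Asxl1. In CSF3R against control it was 0.842 beside 0.435, and in Asxl1 against control -0.998 beside -0.303. The comparisons share groups, so these medians are not independent of each other. In double against CSF3R the median lay between Mcpt4 (2.23 points) and Cpa3 (2.78 points). Cpa3 held 9650 bp in double 1 but 1450 bp in double 2, below its CSF3R mean of 2033 bp. Mcpt4 and Mcpt8 share 80148 bp of these windows. The medians therefore do not show a shift of the genes as a set.

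**Figure D5:**
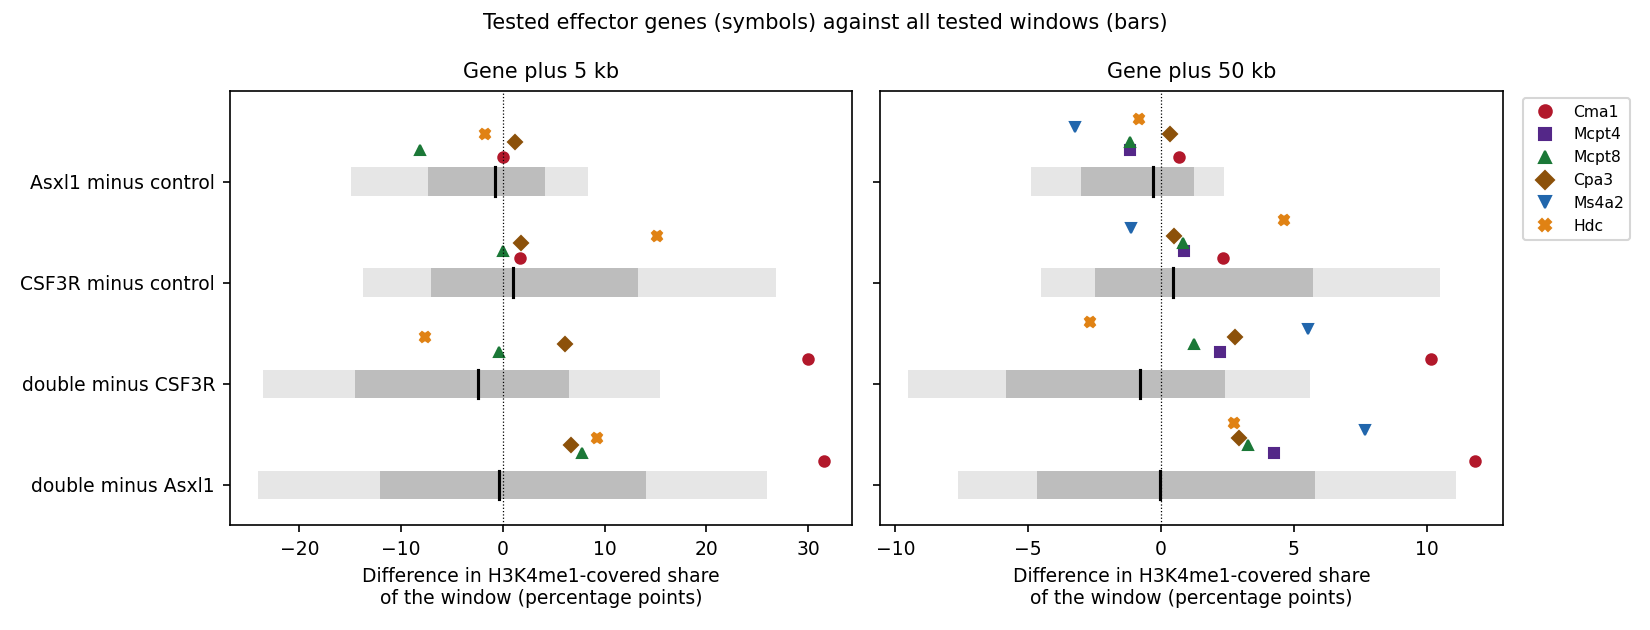
Differences in H3K4me1-covered share (percentage points) for each tested effector gene (symbols) in 4 comparisons, at 5 kb (left) and 50 kb (right). Bars give the middle 90% (dark) and 98% (light) of all tested windows and the black line their median; Cma1 lies beyond the light bar in both double comparisons.

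Added together, H3K4me1 over the 7 wide windows came to 681 and 477 bp per Mb of each library's covered length in control, 551, 396 and 550 in Asxl1, 791, 633 and 741 in CSF3R, and 1559 and 1027 in double. Both double libraries were highest on this scale, which divides by library size. Cma1 gave 17050 of the 67800 bp in these windows in double 1, and 11400 of 30800 bp in double 2. The sum therefore does not show a gain at each gene. Of 51 regions with a peak within 50 kb of a gene, 22 were in a single library, and 16 of those were in double 1. Double 1 thus carried more isolated peaks than any other library; their part in its high values at Cpa3 and Ms4a2 was not tested.

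The neighbouring proteases differed among themselves. The 5 kb window of Cma2 reaches into the Cma1 start peak: it held 3771 and 2371 bp in the double libraries, of which 2221 and 2121 bp lay in the Cma1 window, and the 450 bp in CSF3R 3 lay there in full. Outside it, 1550 and 250 bp were left in the double libraries and 0 bp in the other 8. At 50 kb Cma2 was called higher in double than CSF3R (adjusted p = 0.0136) and Asxl1 (adjusted p = 0.00388), over much of the same sequence as Cma1. Mcpt1, Mcpt2 and Mcpt9, further mast cell proteases, had peaks only in the double libraries, at 675 ± 601, 725 ± 672 and 600 ± 495 bp (SD, n = 2). Mcpt9 lies inside the gene model of Mcpt2, so these lengths share peaks. Ctsg, the neutrophil and mast cell protease cathepsin G, lay 14385 bp from Mcpt8 and was called in no comparison, and the granzyme genes Gzmd and Gzme had no H3K4me1 peak in any library. None of these 5 kb windows but that of Ctsg passed the minimum for a test.

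By the pattern of covered share over the 10 libraries, the genes most like Cma1 outside its own 100 kb were Rtca and Vps28 (Pearson r = 0.9997 and 0.998), and those most like Hdc were Pfkfb3 and Nek6 (0.989 and 0.984). Mcpt8 was nearest to Ubxn11 and Reep3 (0.923 and 0.915), Cpa3 to Elavl1 and Fam20b (0.946 and 0.941), Ms4a2 to Taar9 and Cd48 (0.984 and 0.972), and Mcpt4 to Serf2 and Serinc4 (both 0.860). The points share libraries and group structure, and these were the highest of 3984 to 3987 genes, so the values are descriptions only.

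Other genes of the mast cell and basophil program were taken from 5 lists, and those called are given with the same windows. Over all windows, 10.6% were called at 5 kb and 9.81% at 50 kb in double against CSF3R. The shares were 17.8% and 16.6% in double against Asxl1, and 9.28% and 8.44% in CSF3R against control. Single calls in a list are to be read beside these shares. Of 12 transcription factors, 9 were tested at 5 kb, and Tal1 was called in double against CSF3R: it had a peak in the double libraries only, at 5.72% and 5.33% of its window (adjusted p = 0.0218; 0.0524 without CSF3R 3). Against Asxl1 its adjusted p was 0.0151, and 0.0563 without Asxl1 3. It passed the minimum only through those libraries. Stat5a, which relays cytokine signals, was called higher in double than Asxl1 (8.45% against 0.326%, adjusted p = 0.0166), but not without double 1 (adjusted p = 0.118). Gata2, a master regulator of both lineages, was also looked up after its values were seen: it had no H3K4me1 within 5 kb in any library. Within 50 kb Gata2 was called higher in double than Asxl1 (12.6% against 2.73%, adjusted p = 0.0133; 0.0583 without double 2). Bhlhe40, a factor needed for cytokine production in several immune cells, was higher at 50 kb in double than in CSF3R (13.3% against 6.22%, adjusted p = 0.0166; 0.0641 without double 1) and Asxl1 (2.93%, adjusted p = 0.00236).

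Among cytokines, 5 of 9 were tested at 5 kb, where 10.6% of all windows were called against CSF3R and 17.8% against Asxl1. Il13 was covered for 0% in all control and Asxl1 libraries, 8.59%, 1.87% and 4.48% in CSF3R, and 20.2% and 20.6% in double, with no overlap between double and the rest. Double exceeded CSF3R by 15.4 ± 1.91 points (adjusted p = 0.00343) and Asxl1 by 20.4 ± 1.91 points (adjusted p = 0.000530), and both calls held with any 1 library left out. Its interaction (adjusted p = 0.0448) was kept in 1 of 10 such fits. Tnf was called lower in double than CSF3R (15.1% against 42.7%, adjusted p = 0.0474), kept in 3 of 10, and at 50 kb in 8 of 10 (adjusted p = 0.0170). At 50 kb Il13 and its neighbour Il4 were called higher in double than Asxl1 (adjusted p = 0.00798 and 0.00801) with any 1 library left out. The surface list had 8 of 13 genes tested: Il1rl1, the IL-33 receptor, was covered for 40.3% and 25.5% in double and 14.8%, 10.8% and 16.6% in CSF3R (adjusted p = 0.0208; 0.0574 without double 1). Against Asxl1, Il1rl1 and Adora3, an adenosine receptor of mast cells, were called higher with any 1 library left out, and Csf2rb2 in 5 of 10 such fits. Adora3 was covered for 75.4% in CSF3R and 76.6% in double, and Csf2rb2 for 32.9% and 32.6%. Neither of them was called in double against CSF3R. At 50 kb these 3 were called again against Asxl1, and Csf2rb2 in CSF3R against control (adjusted p = 0.0491, kept in 2 of 10). Csf2rb, the shared β chain of the IL-3 and GM-CSF receptors, was called lower in double than CSF3R (19.9% against 38.6%, adjusted p = 0.0377), kept in 3 of 10.

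Of 18 other granule and mediator enzymes, 17 matched the gene table and 7 were tested at 5 kb; none was called against CSF3R. In double against Asxl1, 17.8% of all windows were called. Alox5, the 5-lipoxygenase of leukotriene synthesis, was higher there by 24.7 points (adjusted p = 0.00539), a call kept with any 1 library left out. Ptgs1 and the basophil protease gene Prss34 were also called, kept in 7 and 2 of 10 such fits. At 50 kb Alox5ap, which helps 5-lipoxygenase, was called higher in CSF3R than control (adjusted p = 0.0193, kept in 7 of 10) and in double than Asxl1 (adjusted p = 0.00892, kept in 10 of 10), and Alox5 again in the latter (adjusted p = 0.0109). The leukotriene C4 synthase gene Ltc4s was higher in CSF3R than control (20.6% against 16.5%, adjusted p = 0.0226, kept in 8 of 10) and lower in double than CSF3R (14.9%, adjusted p = 0.00919, kept in 10 of 10). The IgE signalling list, 7 of 11 tested, had none called at 5 kb in any comparison by limma, with 0 to 2 of 7 in each comparison at an unadjusted p under 0.05; at 50 kb Plcg1 was higher in double than in CSF3R (adjusted p = 0.0297, kept in 4 of 10) and Asxl1 (adjusted p = 0.00995). The medians of the 5 lists in double against CSF3R at 5 kb ran from -3.47 points for IgE signalling to 8.63 for cytokines, beside -2.47 over all windows.

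Polycomb marks did lie on some of these wider genes, unlike the 7 effector genes. H2AK119ub covered 77.6 ± 3.67% (SD, n = 2) of the Gata2 window in control, 44.0 ± 6.41% (n = 3) in Asxl1, 83.3 ± 1.84% (n = 3) in CSF3R and 69.5 ± 8.71% (n = 2) in double. Asxl1 against control was -33.6 points (adjusted p = 0.0135; 6.44% of 4268 windows called; adjusted p = 0.0821 without control 2), and double was higher than Asxl1 (adjusted p = 0.0165; 9.23% called), kept in 7 of 10 fits with a library left out. H3K27me3 at Gata2 was 18.4 ± 4.28%, 0.936 ± 1.62%, 41.0 ± 7.95% and 2.70 ± 3.82% in control, Asxl1, CSF3R and double. Double was below CSF3R (adjusted p = 0.00761; 10.2% of 3861 windows called), a call lost without double 1 or double 2 (adjusted p up to 0.0990), while CSF3R against control (adjusted p = 0.0499; 2.59% called) was kept in 2 of 10. H3K27me3 totals ran from 4.73 to 53.0 Mb, with 15.9 and 22.7 Mb in control, 31.3 to 42.2 Mb in CSF3R and 19.2 and 14.2 Mb in double. Over all windows the median of double against CSF3R was -8.99 points, with 388 windows called lower and 5 higher. The part of these totals in the values at Gata2 and Il13 was not tested. At Il13, H3K27me3 went the other way from H3K4me1, 22.7 ± 11.2% in CSF3R and 0% in double (adjusted p = 0.0475, kept in 3 of 10). H2AK119ub was higher in double than Asxl1 over 3 serine protease genes of 1 tryptase cluster, Tpsb2, Tpsg1 and Prss34, kept in 9, 7 and 7 of 10 fits. Tpsb2 had 7.78% in Asxl1, 36.0% in CSF3R and 57.2 ± 10.8% (SD) in double. Tpsg1 had 8.96%, 35.1% and 62.5 ± 18.3%, and Prss34 2.55%, 25.8% and 70.2 ± 42.1%, in that order. None of the 3 was called against CSF3R. Of all windows, 388 were called higher and 6 lower in double than Asxl1. H2AK119ub totals were 11.8 to 16.7 Mb in Asxl1 and 39.1 and 22.6 Mb in double, and their part was not tested. Against CSF3R, where 8.83% of windows were called for H2AK119ub, Ltc4s was lower (24.9% against 48.7%, adjusted p = 0.0182), kept in 7 of 10, and Stat5a lower, kept in 1 of 10. Runx1, a blood transcription factor, had 1.29% in Asxl1, 7.87% in CSF3R and 21.5% in double: double was called above Asxl1 with any 1 library left out (20.2 points, adjusted p = 0.00915) and above CSF3R in 2 of 10 fits. Tal1 was called higher in double than Asxl1, kept in 7 of 10, and Lat and Ltc4s lower in Asxl1 than control, kept in 3 and 4 of 10. Among cytokines, Il9 was called higher in double than Asxl1 and CSF3R, and Csf2 than Asxl1, kept in 5, 1 and 0 of the 8 fits in which they could be tested. Both passed the minimum only through the double libraries, so they could be tested only by differing.

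Marker genes of other lineages were measured beside these. The cells carried H3K4me1 at neutrophil granule genes, 13 of 13 with a peak and 11 in every library, at 8 of 11 progenitor genes and at 3 of 9 lymphoid genes, where 37.4% of all 5 kb windows had a peak in at least 1 library. Kit, which mast cells and progenitors share and which was picked after its values were seen, was covered for 2350 ± 283 bp (SD, n = 2) in control, 2217 ± 1141 bp (n = 3) in Asxl1, 767 ± 775 bp (n = 3) in CSF3R and 0 bp in double, and was not tested. Of the neutrophil genes, 3 were called higher in CSF3R than control (Cd177, Mmp8 and Prtn3, kept in 10, 9 and 8 of 10 fits with a library left out), beside 9.28% of all windows called. Beside 10.6% called, 4 were lower in double than CSF3R, led by Cd177, S100a9 and Ltf (10, 10 and 7 of 10). The window of Cd177 was covered for 0.854%, 45.9% and 9.43% in control, CSF3R and double. At 50 kb Mpo went the other way, called lower in CSF3R than control (adjusted p = 0.0366, kept in 4 of 10). Cd177, Mmp8 and S100a9 were called higher there, beside 8.44% of all windows. In double against Asxl1, Prtn3 and Mmp8 were called higher at 5 kb and Mpo lower at 50 kb, each kept in 10 of 10. In that comparison 17.8% and 16.6% of all windows were called. No eosinophil gene of 4 tested was called in any comparison by limma, with 0 to 2 of 4 in each comparison at an unadjusted p under 0.05. Of 9 macrophage and dendritic genes, 6 were tested, and in CSF3R against control Cd74 and Cd68 were called higher and Csf1r lower, kept in 10, 6 and 10 of 10 fits with a library left out (adjusted p up to 0.189 for Cd68, lost without control 1 or 2 or CSF3R 1 or 3). Cd68 was also called lower in double than CSF3R, kept in 7 of 10. Myb, of 5 progenitor genes tested, was lower in double than CSF3R (adjusted p = 0.00882; 0.0573 without double 2). The part of these other lineages in the values at the 7 effector genes was not tested.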

How the data were processed

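The authors deposited 1 peak list for each of 30 histone-mark libraries and 1 IgG list from 2 merged libraries, as mm10 positions with no score. Per the submitters' processing notes the tools included Bowtie2 2.4.1 and deepTools 3.5. Which program called the peaks, and at what threshold, is not given in those notes or the labels. Positions fall on a 50 bp grid and peaks are at least 200 bp long, so small differences are coarse.

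Covered length was summed over 21887 protein-coding genes (RefSeq GRCm38.p6) plus 5 kb, and for H3K4me1 plus 50 kb, and over regions made by merging the H3K4me1 peaks of all libraries. The covered fraction was fitted per mark with limma 3.58.1 (R 4.3.3), with 1 mean for each of the 4 genotypes, all 10 libraries in the fit, moderated by eBayes and adjusted by Benjamini-Hochberg over all windows tested; adjusted p under 0.05 was called. Windows needed 5% (5 kb) or 1% (50 kb) coverage, and regions a peak, in at least 2 libraries, and windows with the same value in all 10 were left out. Other windows, filters, scalings, peak lengths, IgG removal and left-out libraries were tried. The fit was tested on simulated data. Tables and figures used Python 3.11.15, numpy 2.4.6, pandas 2.3.3 and matplotlib 3.10.9.

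The genes and lists were chosen with earlier results of these data known. The 7 genes were named in every case; from each list, up to 3 called genes per direction with the smallest p; neighbours within 50 kb; and the 2 genes outside 100 kb with the highest correlation. For the other lineages some genes this rule allows, most of them at 50 kb or in the Polycomb marks, are left out for length. Gata2 at 5 kb in H3K4me1 and Kit stand outside the rule, as marked in the text.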

Additional observations from a re-analysis of the deposited data

Results flagged for a closer look

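For 3 H3K4me1 values the effect of the Asxl1 guide differed with CSF3R-T618I present or absent, by the interaction term of the limma fit. The covered length within 5 kb of Cma1 differed by 3958.34 bp between the guide effects (adjusted p = 0.00137), in a window that passed the 5% minimum only through the double libraries. The region over the Cma1 start, chr14:55943901-55948200, gave 3958.33 bp (adjusted p = 0.00557), and it is the same sequence, so it adds no separate evidence. The 300 bp region inside Mcpt2, chr14:56034451-56034750, gave 275 bp (adjusted p = 0.00527) and held peaks in the double libraries only, which alone brought it into the test. Both windows therefore had to differ once they were tested.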

How the results depend on the processing

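No called difference in a window of the 7 genes turned its direction under any alternative run. Differences that were not called could change sign. At Ms4a2 within 50 kb, double exceeded CSF3R by 6000 bp with both double libraries. Double 2 alone held 2600 bp there, below the CSF3R mean of 4800 bp. Of the values for the 7 genes, 897 kept their side of the threshold, 23 became called and 14 lost a call. Depth is unknown, 2 libraries make up the control and double groups, and with either left out the other stands alone and is assumed to vary like the rest.

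Scoring windows as any peak or none gave 0 genes called at 5 kb for both double comparisons and for the interaction, and 5 regions for the interaction. Of the genes, only Cma1 could be tested under that score. Hdc, Mcpt8 and Cpa3 had a peak in all 10 libraries, so their score did not vary. The Hdc call for CSF3R against control was therefore not tested in this way. With total covered length in the fit, double against Asxl1 called 2 genes at 5 kb and 4 at 50 kb, double against CSF3R 2 genes at 50 kb and 8 regions, and the interaction 1 gene at 50 kb. Flanks of 10 kb in place of 5 kb, and leaving out 200 bp peaks, each gave 2 genes for double against Asxl1. Flanks of 100 kb gave 0 genes for CSF3R against control and 2 for double against Asxl1, and no filter gave 0 at 50 kb for CSF3R against control. Fitting only the 2 groups compared gave 0 at 50 kb for double against CSF3R. Regions in at least 3 libraries gave 3 calls for double against CSF3R, 4 against Asxl1 and 0 for the interaction; regions of the double libraries alone could not be tested there, and the Cma1 start region was tested but not called for the interaction (adjusted p = 0.0521).

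With each library left out in turn, calls at 5 kb ran from 0 to 1 for CSF3R against control, double against Asxl1 and the interaction, and 0 to 2 for double against CSF3R. At 50 kb they ran from 0 to 1 for CSF3R against control and the interaction, 1 to 4 for double against Asxl1 and 1 to 3 against CSF3R. For regions they ran from 1 to 3, 4 to 7, 1 to 6 and 0 to 5 for CSF3R against control, for double against Asxl1, then against CSF3R, and for the interaction. The causes were not tested beyond these settings.

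The labels do not say that a replicate number marks a shared origin, and not every same-numbered pair correlated above 0.1, so the libraries were not treated as paired. Same-numbered libraries correlated from -0.0963 to 0.412 for H3K4me1, -0.444 to 0.385 for H3K27me3 and -0.217 to 0.116 for H2AK119ub, over 13 pairs each, with 8, 3 and 1 pairs above 0.1 in that order. Above 0 were 12, 6 and 8 pairs, so for H3K4me1 a shared origin of same-numbered libraries remains possible. With the replicate block, double against Asxl1 called 3 genes at 5 kb and 4 at 50 kb, adding Mcpt8 and Hdc at 5 kb (adjusted p = 0.0126 and 0.0165) and Mcpt4, Mcpt8 and Hdc at 50 kb (0.0117, 0.00962 and 0.0225). CSF3R against control called 1 region, without the Hdc domain (adjusted p = 0.0502).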
